A study of Mus musculus with 125 samples.

Results

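Liver-only regions are stretches of open chromatin that were called in adult liver endothelium and in no other adult endothelium of the study. They were selected on the deposited ATAC-seq peak lists. Overlapping peaks of the 12 adult endothelial libraries were merged into 109038 regions. A region was chosen if it held a peak in both adult liver endothelial libraries, none in the 10 adult endothelial libraries of brain, heart, kidney, lung and retina, and none in the 2 adult liver input libraries. This gave 5637 regions, 5.17% of all 109038. Since these lists chose the members, their presence in adult liver and absence elsewhere in the adult are a description and not a result.

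The series profiled nuclei of mouse organs by ATAC-seq, in which a transposase cuts accessible DNA, from nuclei labelled as endothelial or as input of the same tissue; how the 2 kinds were separated is not given in the sources used here. Adult mice were 2 months old and received tamoxifen at 0.015 mg/kg 7 days before collection. The young mice, labelled P6, received the same dose at P1 and P3, and their protocol places collection at P7. Embryos, labelled E12, came from dams given that dose at E10.5 and were collected at E12.5, as brain, heart and trunk. In every group, inputs included, samples without GFP in their vessels were not processed further; strain, recombinase driver and reporter allele are not given in the sources used here. The label trunk does not say which organs it holds, so a trunk library is not a liver library. The groups used here hold 2 P6 liver, 12 other P6, 4 E12 trunk and 7 other E12 endothelial libraries, with 16 P6 and 3 E12 input libraries beside them. Nothing in the labels says whether replicates came from separate animals, so p-values measure only the spread between these libraries.

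Liver sinusoidal endothelial cells line the low-pressure capillaries between liver plates. They have open pores and little basement membrane, take up macromolecules from blood through scavenger receptors, and send growth signals to hepatocytes and stellate cells. Gata4 and Maf are known as transcription factors of this cell type, and Stab2, Lyve1, Fcgr2b and Clec4g are among its usual markers. Regions such as these, far from gene starts and open in a few cell types, often act as enhancers, while promoters are more often open in many cell types.

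The 66 lists held 19464 to 144197 peaks from 10.1 M to 59.1 M tags. The adult liver endothelial lists held 37022 and 47334 peaks, and those of the other adult organs 19464 to 45276. The same rule with each other organ in the place of liver gave 2345 regions for brain, 1006 for heart, 558 for kidney, 53 for lung and 37 for retina. The adult input lists used for exclusion were unequal. They held 25880 and 39670 peaks for liver, 94933 for the 1 brain and 57509 for the 1 heart input. Kidney inputs held 31045 and 65196, lung 34327 and 78793 and retina 32560 and 82301. The part of this in the counts was not tested. When the 19464 strongest peaks were taken from every list, the number of liver-only regions fell from 5637 to 2579. Without adult liver endothelial replicate 1, so that the other liver list alone decided, it was 10891. As a check of the labels, peaks were sought within 1 kb of marker gene starts. Both adult liver endothelial lists held one at 8 of 9 general endothelial genes, and the adult liver input lists at 2 and 6. Of 10 hepatocyte genes the endothelial lists held 4 and each input list 10. Endothelial and input lists alike held 1 of 8 macrophage genes and 0 of 4 cholangiocyte genes. At P6 both liver endothelial lists held 8 of the 9 general endothelial genes, liver input 3 also 8 and liver input 4 held 2. These genes thus did not set P6 liver input 3 apart. Of the hepatocyte genes the P6 endothelial lists held 4 and 3 and the inputs 10 and 9. Of the macrophage genes they held 2 and 1, and the inputs 6 and 2.

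Sequence could be read only where a member covered an annotated gene start, because no genome was used. The 250 bases before the start are shown for Stab2, Clec4g and Tfec, the genes of the liver endothelial lists with an annotated start in a liver-only region. Gata4 had no entry in the table of starts, and its member chr14:63271483-63272101 spans one end of its gene body. C3ar1 and Ackr1 are shown as other starts under a liver-only region, chosen after their values were seen. Kdr, Efnb2 and Tek stand for list genes whose starts lay in liver regions that other organs shared, and were picked with their CpG counts known, Kdr and Efnb2 as rich and Tek as poor in CpG. Capitals mark CG dinucleotides (CpG), whose median differed between these sets. The sequences come from RefSeq, build GRCm38.p6, each written 5′ to 3′ in the direction of its gene.
Stab2: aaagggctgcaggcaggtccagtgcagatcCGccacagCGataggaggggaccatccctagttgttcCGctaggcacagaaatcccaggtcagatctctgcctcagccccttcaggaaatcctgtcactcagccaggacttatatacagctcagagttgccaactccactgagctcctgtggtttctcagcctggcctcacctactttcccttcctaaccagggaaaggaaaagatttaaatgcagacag
Clec4g: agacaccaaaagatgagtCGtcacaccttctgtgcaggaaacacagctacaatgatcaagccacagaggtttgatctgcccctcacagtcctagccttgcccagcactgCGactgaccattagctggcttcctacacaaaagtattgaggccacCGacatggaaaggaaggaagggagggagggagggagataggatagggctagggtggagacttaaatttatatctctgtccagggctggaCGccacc
Tfec: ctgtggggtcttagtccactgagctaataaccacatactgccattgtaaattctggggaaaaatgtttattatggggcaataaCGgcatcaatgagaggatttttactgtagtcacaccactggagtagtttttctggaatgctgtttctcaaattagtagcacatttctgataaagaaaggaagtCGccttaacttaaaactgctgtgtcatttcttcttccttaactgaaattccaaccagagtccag
C3ar1: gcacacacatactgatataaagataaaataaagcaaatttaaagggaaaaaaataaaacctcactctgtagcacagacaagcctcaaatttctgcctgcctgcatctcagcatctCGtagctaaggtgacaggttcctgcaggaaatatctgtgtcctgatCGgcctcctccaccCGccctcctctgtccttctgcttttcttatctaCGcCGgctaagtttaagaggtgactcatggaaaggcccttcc
Ackr1: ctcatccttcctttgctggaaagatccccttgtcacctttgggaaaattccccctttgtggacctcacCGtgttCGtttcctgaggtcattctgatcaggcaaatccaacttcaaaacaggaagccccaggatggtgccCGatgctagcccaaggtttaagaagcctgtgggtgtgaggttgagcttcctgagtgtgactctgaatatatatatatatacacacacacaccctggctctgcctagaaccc
Kdr: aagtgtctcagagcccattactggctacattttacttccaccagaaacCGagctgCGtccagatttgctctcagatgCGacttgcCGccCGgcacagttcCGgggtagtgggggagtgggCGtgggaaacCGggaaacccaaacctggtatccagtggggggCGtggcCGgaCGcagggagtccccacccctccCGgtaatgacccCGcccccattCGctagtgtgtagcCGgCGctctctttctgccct
Efnb2: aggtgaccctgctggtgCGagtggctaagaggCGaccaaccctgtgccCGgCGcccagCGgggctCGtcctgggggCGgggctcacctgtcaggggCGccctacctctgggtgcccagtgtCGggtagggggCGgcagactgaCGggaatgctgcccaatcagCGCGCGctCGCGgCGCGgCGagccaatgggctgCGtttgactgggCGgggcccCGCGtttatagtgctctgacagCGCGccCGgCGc
Tek: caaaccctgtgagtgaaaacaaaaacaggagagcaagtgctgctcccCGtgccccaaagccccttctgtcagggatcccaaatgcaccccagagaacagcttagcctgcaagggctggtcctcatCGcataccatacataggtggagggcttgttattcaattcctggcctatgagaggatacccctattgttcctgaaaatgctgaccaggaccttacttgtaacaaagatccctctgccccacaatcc
The stretches lie at chr10:87007943-87008192, chr8:3720652-3720901, chr6:16898442-16898691, chr6:122856158-122856407, chr1:173333504-173333753, chr5:75978456-75978705 and chr8:8661243-8661492, all on the minus strand, and, for Tek, at chr4:94739039-94739288 on the plus strand.

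Starts under liver-only regions were in the median poorer in CpG than shared starts. The 3 list genes held 3 (Stab2), 4 (Clec4g) and 2 (Tfec) CpG, C3ar1 held 5 and Ackr1 3. Kdr held 16, Efnb2 27 and Tek 2. The sets overlapped. Shared starts of list genes such as Cd36 and Mrc1 held 3 CpG, while the liver-only starts of Tmem132e, Cnn2 and Col13a1 held 28, 25 and 24. Across the 42 starts of 41 genes under a liver-only region the median was 5 CpG in 250 bases, against 17 for 10021 starts under liver regions shared with another organ and 10 for all 21263 protein-coding starts. At most 5 CpG were present in 24 of the 42 (57.1%), in 7.13% of the shared starts and in 37.8% of all starts. Median GC content was 51.6%, 61.2% and 55.6%. Serpina3f contributed 2 overlapping starts to the 42, and the stretches of Gm13305 and Il11ra2, genes of near-identical copies, are the same sequence shifted by 1 base.

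Short motifs were searched on both strands of the same 250 bases. CAGGAAG, a form of the site bound by ETS factors such as Erg and Fli1, was present at 14 of the 42 starts (33.3%), against 9.70% of shared and 10.2% of all starts. Ackr1 held 2 copies. Gm13305 and Il11ra2 are counted as 2 of the 14 for the same match. AGATAA, a site of GATA factors, was present at 5 (11.9%), against 481 of the 10021 shared starts and 8.81% of all starts. C3ar1 held 2 copies, of which 1 shared 1 base with a match of the TATA box. TGCTGA, one arm of a MAF recognition element, was present at 9 (21.4%), against 11.6% and 14.9%. The 2 overlapping Serpina3f starts are counted as 2 of the 9 for the same match. The TATA box was searched as TATAAA and was present at 7 (16.7%), Clec4g among them, against 5.18% and 11.6%. The AP-1 site TGANTCA was present at 5 (11.9%), against 3.52% and 6.13%. The E-box CACGTG was present at 4 (9.52%), against 9.07% and 6.63%. The SOX site AACAAT was also present at 4 (9.52%), against 4.52% and 8.22%. Stab2 and Tfec held none of the 7 motifs in this window. These are letter matches in a small set of promoters and carry no test.

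Most liver-only regions lay away from gene starts. Of the 5430 on chromosomes with annotated starts, 109 (2.01%, 95% Wilson interval 1.67 to 2.42%) lay within 1 kb of a protein-coding start, against 8554 (32.0%) of the 26695 such liver regions shared with another organ. The interval treats regions as independent, although 22.7% of members had another within 10 kb, and covers counting error only. The median distance was 43.1 kb for liver-only and 15.2 kb for shared regions, and 46.0% and 29.0% lay beyond 50 kb. Their median width was 409 bp (202 to 1640). The median of 780 bp of shared regions is not comparable, since these merge peaks of more lists, and heart-only, kidney-only and brain-only regions had medians of 375, 392 and 397 bp. Liver-only regions lay inside a protein-coding gene body in 58.2% of cases, against 70.7% of shared regions. Remoteness was not particular to liver, since 1.78% of heart-only, 1.45% of kidney-only and 2.21% of brain-only regions lay within 1 kb of a start.

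**Figure D1:**
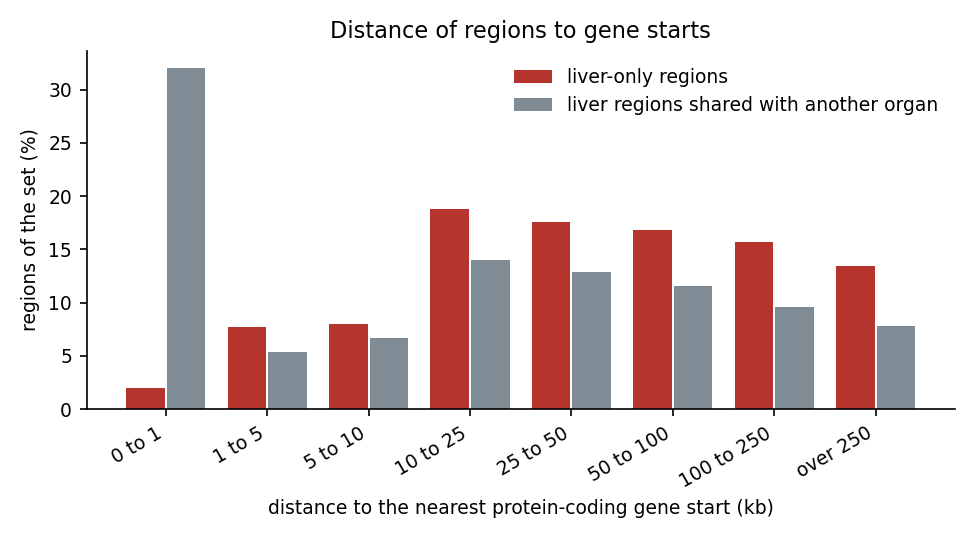
Share of regions (%) by distance to the nearest protein-coding gene start (kb), for liver-only regions (red) and liver regions shared with another organ (grey). Only 2.01% of liver-only but 32.0% of shared regions lie within 1 kb.

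Members were spread over the genome and partly grouped. Between 12.9% (chromosome 11) and 20.7% (chromosome X) of the liver regions of a chromosome were liver-only. Another member lay within 10 kb of 22.7% of them. The 5637 regions had 3270 different nearest genes by distance to the gene body, of which 2076 had 1 region and 154 had 5 or more. The highest counts were 19 at Adgrl2, an adhesion G protein-coupled receptor, and 14 at Prkce, a protein kinase C. Next came 13 at Maf, 12 at Zeb2 and 11 each at Bmp2, Diaph3 (a formin that assembles actin), Magi1 (a scaffold of cell junctions) and Zfp608 (a zinc finger protein). Fbxl7, an F-box protein, and Wwox had 10 each. Gene length enters such counts. Wwox spans 913 kb and held 7 of its 10 in its body, while Maf spans 3.64 kb and held none of its 13 in its body. Wwox and Maf lie next to each other on chromosome 8, so a region between them counts for whichever is nearer. At Adgrl2 15 of the 19 lay outside the gene body. Bmp2, which encodes the angiocrine factor through which sinusoidal endothelium controls hepcidin in hepatocytes, spans 10.7 kb and held 2 of its 11 in its body.

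The authors' fold of a peak sets its tag pileup against the background around it in that library. Members had a median fold of 3.59 in adult liver 1 and 3.47 in adult liver 2, against 4.14 and 3.97 for shared regions. The log2 folds of both libraries correlated across the 5637 members with a Pearson r of 0.79. This r is across regions chosen for a peak in both, and is a description. The highest lower fold of both libraries, 8.23, belonged to chr9:61666058-61666559, 247 kb from the nearest gene body, Rplp1. It was followed by chr17:9512505-9512896, with folds of 7.63 and 8.36 at 154 kb from Pabpc6. Folds of 7.62 and 7.38 were found at chr12:83185839-83186308, 23.8 kb from Rgs6. The next 7 were chr8:110313188-110313706 in Hydin, chr11:17768336-17768965 170 kb from Etaa1, chr2:132340316-132340891 28.3 kb from Cds2, chr12:52186943-52187416 in Nubpl, chr13:35835643-35836087 in Cdyl, chr4:33347020-33347660 in Rngtt and chr16:44001985-44002459 in Gramd1c. All 10 held peaks in both P6 liver endothelial libraries, with P6 folds between 4.30 and 11.6. They differed elsewhere. The regions near Rgs6 and in Hydin had no peak in any of the 12 other P6 endothelial libraries, whereas the one in Rngtt had a peak in 9, from all 5 other organs.

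Beside the rule, 1626 regions with peaks in both adult liver libraries failed it through exactly 1 library of another organ. Adult kidney 2 was that library for 519 and adult lung 1 for 320. Their median lower fold was 3.29, against 3.32 for the members. A further 702 regions failed only through a peak in a liver input library, with a median of 3.61. A peak in only 1 of the 2 liver libraries kept out 6323 regions, with a median fold of 2.82.

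The P6 libraries, which the rule did not use, show whether the regions were open in young liver. Members held a peak in 89.9% of cases in P6 liver endothelial 1 and in 70.4% in P6 liver endothelial 2. In the other P6 endothelial libraries the shares were 37.7% and 36.0% in heart, 25.1% and 22.5% in lung, 25.2% and 12.01% in kidney, 15.8%, 12.8% and 16.1% in retina, and 1.54%, 13.6% and 16.7% in brain. Both liver libraries were above all 12 others. In bulk nuclei, fewer cells with a region open and less accessibility per cell cannot be told apart. Their mean was 80.1% ± 13.8 (SD, n = 2) against 19.6% ± 10.3 (SD, n = 12), a difference of 60.5 percentage points. An exact permutation of the 14 library labels (2-sided, 91 relabellings) returned its smallest possible value, p = 0.011, or 0.044 after Benjamini-Hochberg adjustment over 4 tests. The 12 other libraries are replicates within 5 organs, so the labels are not freely exchangeable and this p overstates the evidence. The rule also barred adult peaks of the same 5 organs and required adult liver peaks. The direction of the difference is thus partly set by the rule, and the p is not independent support. With organs as the unit, 1 against 5, an exact permutation could not reach p below 0.05. With any 1 of the 14 libraries left out fewer relabellings remain and the adjusted p exceeds 0.05, and without either liver library the unadjusted exact p was 0.0769. The regions of other organs, chosen by the same rule, were also held more often by their own organ at P6, by 65.5 points for heart, 60.2 for kidney, 50.8 for brain, 69.5 for lung and 33.0 for retina, so a difference of this size was not particular to liver. Against the 2 kidney libraries alone, which share the liver libraries' kind of aligned file, the difference was 61.5 points and the exact p could not fall below 0.333.

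**Figure D2:**
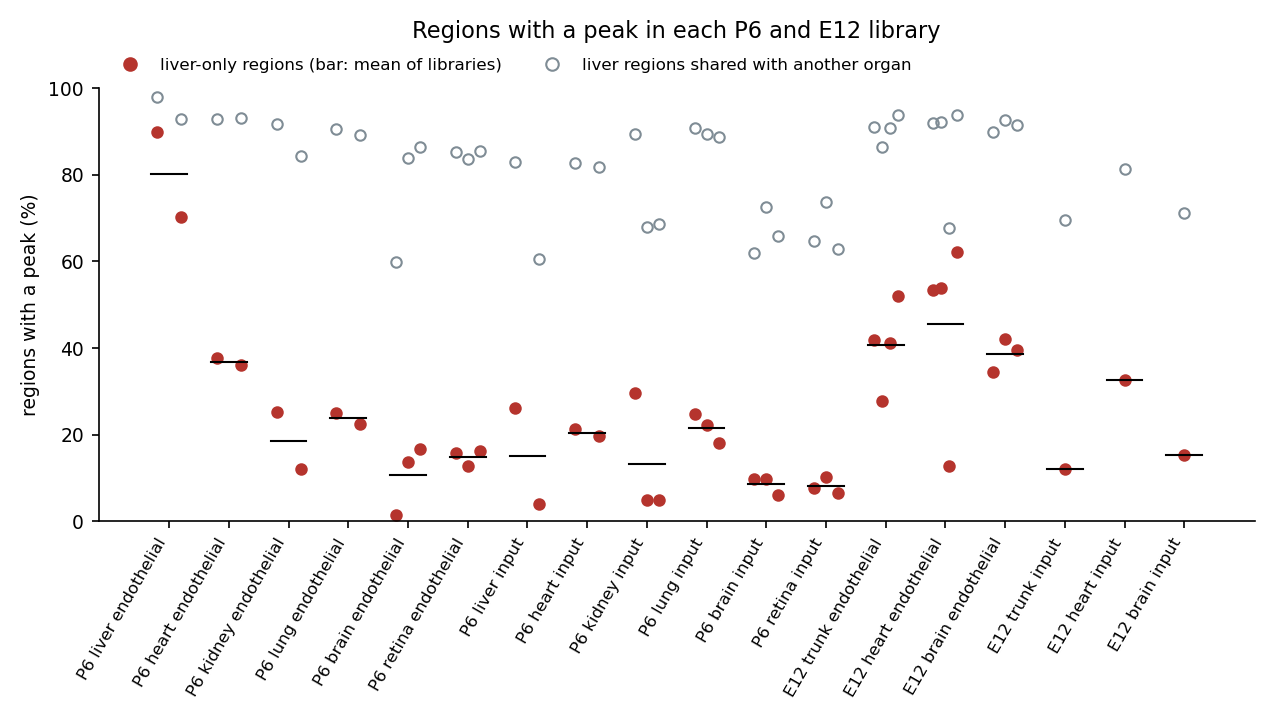
Share of regions (%) with a peak in each P6 and E12 library, for liver-only regions (red, black bar at the mean of a group) and liver regions shared with another organ (open grey). The 2 P6 liver endothelial libraries stand at 70.4% and 89.9%, above all other red points.

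Peak number differed between these libraries. P6 brain endothelial 1, with the lowest share, held 27160 peaks and covered 59.8% of the shared liver regions, against 83.7 to 93.2% in the other P6 endothelial libraries outside liver. P6 liver endothelial 1 held 66025 peaks and liver endothelial 2 held 47685, fewer than the 84241 to 92863 of the retina libraries, which held 12.8 to 16.1% of the members. With the 19464 strongest peaks of every list, the P6 liver libraries held 63.4% and 51.9% of the then 2579 members and the 12 others 0.853 to 9.31%.

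By region, 3936 members (69.8%) held a peak in both P6 liver endothelial libraries, against 36.9% of all 109038 adult endothelial regions and 92.6% of the shared liver regions. A further 1160 held one in 1 of these libraries and 541 (9.60%) in neither. Members with a higher adult fold were found more often at P6. In the 1410 members with the lowest folds (1.57 to 2.88) 53.7% held a peak in both P6 liver libraries, and in the 1409 with the highest (3.90 to 8.23) 87.4%.

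**Figure D3:**
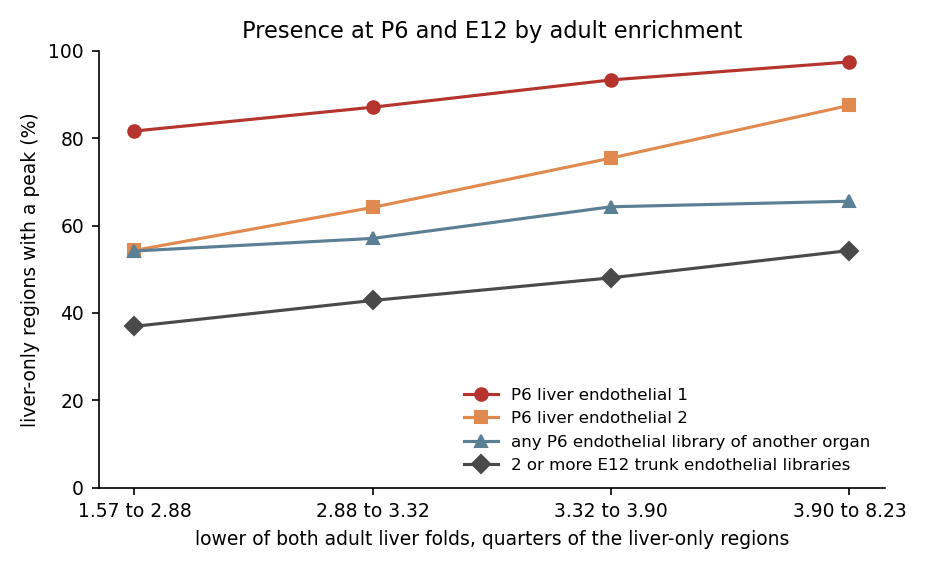
Share of liver-only regions (%) with a peak at P6 or E12, by the lower of both adult liver folds in 4 groups of equal size. All 4 lines rise, from 54.3 to 87.5% in P6 liver endothelial 2 and from 37.0 to 54.3% for 2 or more E12 trunk libraries.

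The rule had fixed the adult lists of other organs at no peak, so the adult and P6 counts cannot be compared. A peak in at least 1 P6 endothelial library of another organ was present at 3398 members (60.3%), and 2239 had none. The members were held less often than the average adult region, of which each P6 heart library held 49.6 to 49.9%, each retina library 54.1 to 57.1%, each lung library 42.2 to 44.8%, each kidney library 35.2 to 45.1% and each brain library 22.7 to 53.2%. The set of all adult regions includes the adult peaks of these same organs, which the rule barred from the members. A lower share of members is thus partly set by the rule and is a description. Peaks came from 1 other organ at 1248 members and from all 5 other organs at 323. Among the members heart was the most frequent. Both P6 heart libraries held 1732 members (30.7%), and for 659 heart was the only organ besides liver. Both P6 liver libraries and no other P6 endothelial library held 1217 members (21.6%). For these combined classes of libraries no share of all adult regions was worked out, so the counts describe the members only. P6 endothelial lists held 27160 to 92863 peaks and adult ones 19464 to 47334. With equal numbers of peaks, 23.1% of the members had a peak in another organ at P6, 6.44% had one in both P6 heart libraries, 48.0% had one in both P6 liver libraries and 32.7% had none in P6 liver. For these shorter lists, too, no share of all adult regions was worked out, so the values describe the members only.

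Whole-liver nuclei were examined at P6 because adult liver input had been used to exclude regions. P6 liver input 3 held 26.1% of the members and P6 liver input 4 held 4.01%, with 77560 and 40943 peaks. Of all adult endothelial regions these inputs held 40.2% and 23.8%, and the 14 other P6 inputs 31.1 to 53.4%. Members were thus held less often than the average region, which the rule partly sets, since it barred adult liver input peaks and adult peaks of other organs. The endothelial mean exceeded the input mean of 15.0% ± 15.6 (SD, n = 2) by 65.1 points, and both endothelial libraries lay above both inputs. A test of 2 against 2 libraries cannot go below p = 0.333, the exact permutation value found (adjusted p = 0.667). The rule had removed 702 regions with an adult liver input peak, which bears on the comparison of P6 liver input with other inputs. The 14 other P6 inputs held 4.88 to 29.5% of the members with a mean of 13.9% ± 8.29 (SD, n = 14). The difference was 1.09 points (exact permutation p = 0.85, adjusted p = 0.85). Without the condition on adult liver input it was 5.06 points (exact permutation p = 0.567), and where peaks had to cover at least 50% of a region 0.136 points. It was -9.94 points without liver input 3 and 12.1 points without liver input 4.

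In E12 trunk endothelium, members held a peak in 41.8%, 27.9%, 41.2% and 52.1% of cases in the 4 libraries. In E12 heart endothelium the shares were 53.4%, 53.9%, 12.9% and 62.2%, and in E12 brain endothelium 34.5%, 42.2% and 39.5%. Of all adult endothelial regions, in the same order, the trunk libraries held 49.5%, 44.3%, 50.8% and 56.3%. Heart libraries held 53.1%, 53.5%, 25.4% and 56.0% of them and brain libraries 53.4%, 55.8% and 54.8%. That set includes adult peaks of other organs, which the rule barred from the members. The groups overlapped. Trunk had a mean of 40.8% ± 9.95 (SD, n = 4) and brain with heart 42.6% ± 16.3 (SD, n = 7), a difference of -1.87 points (exact 2-sided permutation p = 0.839 over 330 relabellings, adjusted p = 0.85). E12 heart 3 was the shallowest library, with 10.1 M tags and 39096 peaks, and without it the difference was -6.84 points. It was 2.43 points without trunk 2. Trunk, heart and brain libraries at E12 each have their own kind of aligned file, so site and read processing cannot be told apart. The input libraries held 12.2% in trunk, 32.7% in heart and 15.3% in brain.

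At 2567 members (45.5%) at least 2 of the 4 trunk libraries held a peak, against 53.1% of all adult endothelial regions and 92.5% of the shared liver regions. All 4 held 1433, and none held 2498 (44.3%). Of the 2567, 50 had no peak in any E12 brain or heart endothelial library. Both P6 liver libraries and at least 2 trunk libraries held 2203 members (39.1%), both P6 liver libraries and no trunk library 1326 (23.5%), and at least 2 trunk libraries but no P6 liver library 65 (1.15%). For combined classes such as these no share of all adult regions was worked out, so the counts describe the members only. No P6 or E12 endothelial library held 278 (4.93%). The strongest of these 278 was chrX:167341879-167342262, 4.06 kb from Prps2, with adult folds of 4.85 and 4.90, followed by chr5:9185773-9186382, 23.97 kb from Dmtf1, with 4.79 and 5.06. With equal numbers of peaks 11.6% of members were in at least 2 trunk libraries, and 67.6% were in no E12 endothelial library. With the full lists 1367 members (24.3%) were in no E12 endothelial library.

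Genes known for liver endothelium were then examined for members within 50 kb of their bodies. Such a region was present at 5871 of 21887 protein-coding genes (26.8%), and at 40 of the 51 genes of 5 liver endothelial lists (78.4%). The median was 2 members for a list gene and 0 for all genes. Around these 51 genes, 126 of 464 liver regions (27.2%) were liver-only, against 11.8% around all genes, where a region counts for each gene it is near. Counted once each, 5637 of all 33937 liver regions were liver-only, or 12.9 to 20.7% by chromosome, so 11.8% is a low yardstick. Some lists of other cells also exceeded 11.8%, with 33.3% for cholangiocyte (4 of 12 regions), 20.0% for hepatocyte, 20.0% for blood cell and 17.9% for lung endothelial genes. With the nearest gene body alone, 33 of the 51 genes had a member, and 3270 of all 21887. A member counted for a list gene can lie in the body of another gene. This held for all members of Stab1, Mrc1 and Lyve1. It also held for the single members of Wnt2 (in Asz1), Angpt2 (in Mcph1), F8 (in Mpp1) and Gpr182 (in Myo1a). The lists were drawn up with earlier results of these data known and get no test.

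**Figure D4:**
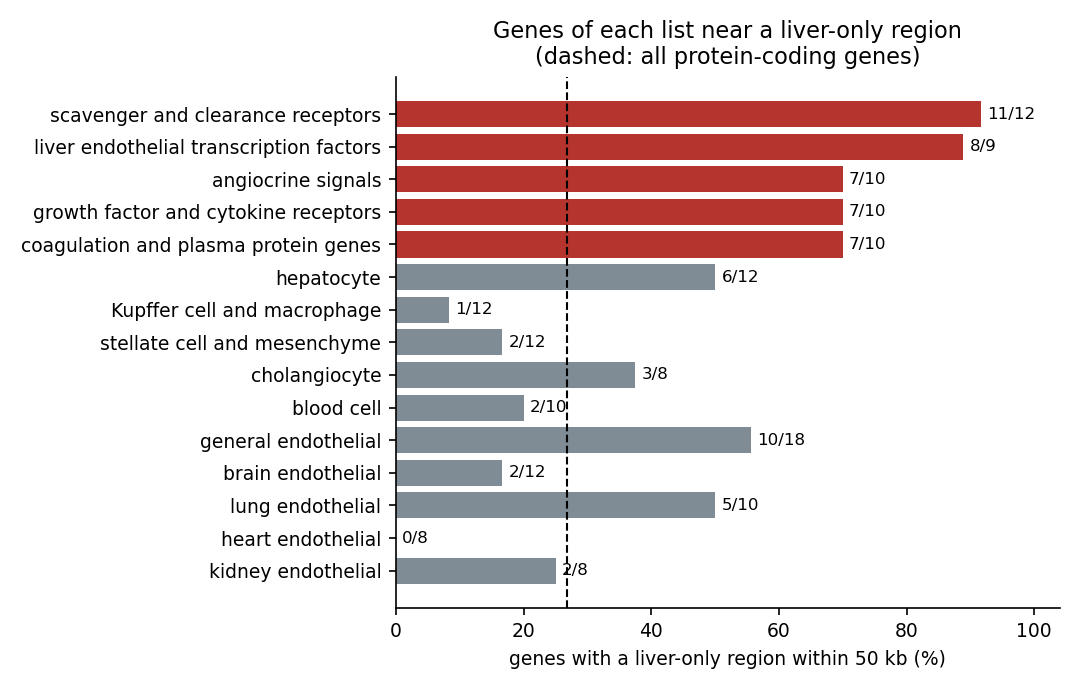
Share of the genes of each list (%) with a liver-only region within 50 kb of the gene body, with counts, for 5 lists of liver endothelium (red) and 10 lists of other cells (grey). The dashed line marks 26.8%, the share of all protein-coding genes. All 5 red bars, from 70.0 to 91.7%, lie beyond it, as do 4 grey ones, general endothelial (55.6%), hepatocyte and lung endothelial (50.0% each) and cholangiocyte (37.5%).

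Scavenger and clearance receptors had members at 11 of 12 genes, all but Cd209b. Fcgr2b, the inhibitory Fc receptor that clears immune complexes, had 8 of its 12 liver regions liver-only. They ran from chr1:170913691-170914037 to chr1:170992645-170992945, 3 of them in the gene body, and 7 held peaks in both P6 liver libraries. At Stab2, the main hyaluronan scavenger receptor, 6 of 14 were liver-only. The strongest was chr10:87045292-87045699, 37.3 kb from the gene, with folds of 6.12 and 6.27 in the adult and 7.99 and 5.95 at P6. The member over the Stab2 start, chr10:87007909-87008426, had lower adult folds of 3.003 and 2.82, and peaks in all 4 trunk libraries and in 5 other P6 libraries. Clec4g, a C-type lectin, had 3 members. The member over its start had folds of 3.27 and 2.65, no peak in the 12 other P6 endothelial libraries and none in trunk.

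The other genes of this list had 1 to 4 members. Ctsl and Lgmn, lysosomal proteases, had 4 each and Lyve1, a hyaluronan receptor, 3. Stab1, Mrc1, Dab2 and Cd36 had 2 each, and Scarb1, the HDL receptor, 1. The strongest Dab2 member, chr15:6425745-6426272 in the gene body, had adult folds of 5.10 and 4.46 and no peak in another organ at P6 or in trunk. The stronger Mrc1 member by its lower fold, chr2:14221991-14222370, had adult folds of 4.40 and 4.56 and P6 folds of 2.93 and 3.13. Of the 37 regions of this list 29 held peaks in both P6 liver libraries and 12 in at least 2 trunk libraries, or 78.4% and 32.4%, against 69.8% and 45.5% of all members.

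Transcription factors had members at 8 of 9 genes, all but Id1, around which 12 liver regions were all shared. Zeb2, a zinc finger repressor, had 11 of 19, of which 7 lay in the gene body. Meis2, a homeobox factor, had 8 of 19, all in its body, the strongest at chr2:116015454-116015998 with folds of 5.20 and 5.63. At Tfec, of the MiT family of basic helix-loop-helix factors, 6 of 7 liver regions were liver-only and none was shared with another organ. They included the start (folds of 3.84 and 4.04) and a region 8.56 kb from the gene, chr6:16821838-16822371, with folds of 5.89 and 5.55. A peak in a P6 liver input library was present at 4 of the 6, against 26.5% of all members. The liver region at Tfec outside the 6 was removed by an adult liver input peak. The start member also held E12 peaks in 4 trunk, 3 brain and 2 heart endothelial libraries. Gata4 had 5 of 9, all in its body, with folds from 2.36 to 3.50. Maf had 4 of 6, all 13.6 to 28.2 kb from the gene, and each held a peak in both P6 liver libraries. None of the 4 reached 2 trunk libraries. Nr2f2, a factor of veins, and Tal1, a factor of blood and endothelium, had 1 each. Of the 37 regions of this list 23 (62.2%) had no peak in another organ at P6, against 39.7% of all members. That share was 45.9% for the scavenger list, 50.0% for angiocrine signals, 27.8% for receptors and 31.3% for coagulation genes. Zeb2 alone gave 9 of the 23. The list's median lower fold was 3.03, against 3.32 for all members. A P6 peak in another organ was present at 54.2% of the members with the lowest folds and at 65.6% of those with the highest.

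**Figure D5:**
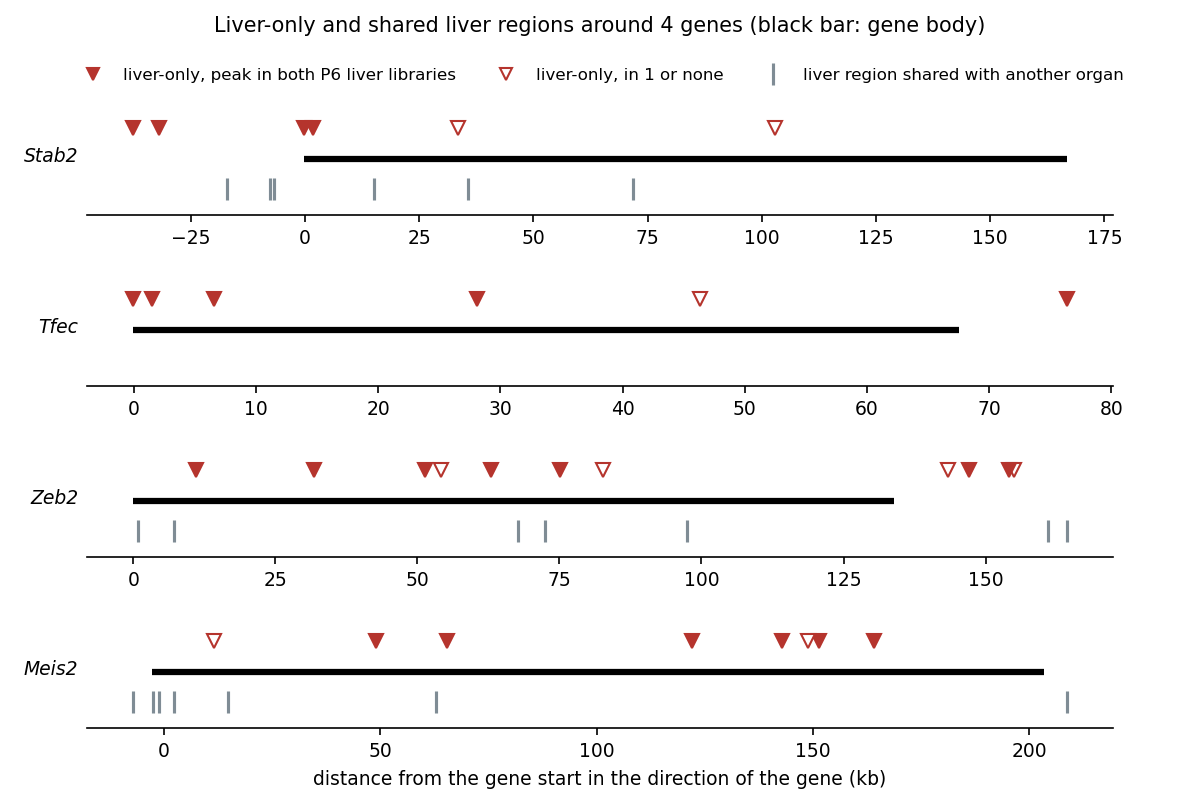
Distance from the gene start (kb, in the direction of the gene) of liver-only regions (red triangles, filled where both P6 liver libraries hold a peak) and of liver regions shared with another organ (grey ticks) around Stab2, Tfec, Zeb2 and Meis2. Tfec has 6 liver-only and no shared region, and at Stab2, Zeb2 and Meis2 both kinds lie along the gene.

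Angiocrine signals, secreted or displayed to neighbouring cells, had members at 7 of 10 genes. Bmp6, the partner of Bmp2 in iron control, had 6, all in its body, and Bmp2 had 4. The strongest Bmp2 member, chr2:133533014-133533960, lay 18.2 kb from the gene with adult folds of 7.09 and 5.80, P6 folds of 6.48 and 7.20 and peaks in all 4 trunk libraries. Wnt9b and Wnt2, ligands that sustain the hepatocytes around central veins, had 3 and 1. Kitl, the ligand of Kit, had 2. Hgf, hepatocyte growth factor, and Angpt2, a ligand of the Tek receptor, had 1 each. Rspo3, Dll4 and Efnb2 had none. Of the 18 regions 9 (50.0%) held peaks in both P6 liver libraries, against 69.8% of all members.

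Receptors had members at 7 of 10 genes. Il6st, the shared receptor chain of IL-6 family cytokines, had 5 and Kit 4, of which 3 lay in the gene body. Tek, the angiopoietin receptor, had 3, Flt1, a VEGF receptor, and Nrp1, a VEGF co-receptor, 2 each, and Flt4, a VEGF-C receptor of sinusoids and lymphatics, and Lifr 1 each. Kdr, Acvrl1 and Eng, used by endothelium of many organs, had none, and all 10, 10 and 15 liver regions near them were shared. Over this list 18 of 113 liver regions (15.9%) were liver-only. The share was 11.8% around all genes, where a region counts for each gene it is near. With each liver region counted once it was 12.9 to 20.7% by chromosome, a range that holds the share of this list.

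Genes of coagulation and other secreted or membrane proteins had members at 7 of 10. Dnase1l3, a secreted DNase, had 5, and Oit3, a marker of liver sinusoids, had 3. Vwf, the platelet-binding clotting protein, also had 3, the strongest at chr6:125583480-125584099 in its body, with adult folds of 5.86 and 5.65. Tfpi, an inhibitor of tissue factor, had 2, and F8 (clotting factor VIII), Gpr182 and Ntn4 (a netrin) 1 each. The member of Gpr182, an atypical chemokine receptor, 41.5 kb from it at chr10:127707656-127708110, had adult folds of 5.73 and 5.21. Thbd, Procr and Plat, regulators of clotting and fibrinolysis, had none.

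Lists of other cells were examined the same way. Hepatocyte genes had a member at 6 of 12 (50.0%), with 6 members in all, and general endothelial genes at 10 of 18. Macrophage genes had 1 of 12, Clec4f, whose member lay 44.4 kb away. Stellate cell genes had 2 of 12, Pdgfra and Col1a2, cholangiocyte genes 3 of 8, Epcam, Cftr and Sctr, and blood cell genes 2 of 10, Cd3e and Ncr1. Among genes of other organs' endothelium there were 5 of 10 for lung (Car4, Tbx2, Prx, Calcrl and Hpgd), 2 of 12 for brain (Cldn5 and Lrp8), 2 of 8 for kidney (Ehd3 among them) and 0 of 8 for heart. Outside these lists, members also lay over the starts of Spic, which encodes a transcription factor of macrophages, and of the leukocyte genes Tnf and Lcp1. These are examples and not a full count, since starts outside the lists were not sorted by cell type. The Spic member had adult folds of 3.01 and 4.30 and no peak in another organ at P6. Those of Tnf and Lcp1 had P6 peaks in 3 and 5 other organs. The part of hepatocyte, macrophage or other blood cell nuclei in the liver-only set was not tested.

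The 41 members over a gene start, those of Spic, Tnf and Lcp1 among them, lay over genes of varied functions. The 10 with the highest lower fold lay over Ctnna3, C3ar1, Serpina3f, Spata4, Slc24a5, Aim2, 6030498E09Rik, Gm13305, Sash3 and Cdkn2a, with lower folds from 4.70 down to 3.98. C3ar1, the receptor of complement fragment C3a, had adult folds of 4.95 and 4.69 and peaks in all 4 trunk libraries. Aim2, a sensor of cytosolic DNA, had 4.38 and 4.89 and peaks in 9 other P6 endothelial libraries. Spata4 had peaks in 11. Cdkn2a had a peak in P6 liver endothelial 1 but not in 2. Serpina3f and Gm13305 belong to families of close copies, so reads there may be split among them. Of these 10, Gm13305 was the one without a peak in another organ at P6.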

How the data were processed

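ATAC-seq was analysed in 66 libraries, grouped by sample title. MACS2 2.1.2 was run on each library alone by the authors, per the file headers, in broad mode without a control, with a shift of -100 and an extension of 200 bp, q-values of 0.05 and 0.1 and 1 tag per position. The deposited lists give each peak's fold, a ratio of pileup over local background, and −log10 of its p-value and q-value. The submitters' processing notes name mm10, Bowtie2 and SAMtools 1.13. Aligned files have 4 kinds of name, per the file headers.

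With Python 3.11.15, numpy 2.4.6 and scipy 1.17.1, peaks were merged and a library was counted as holding a region where a peak overlapped it by 1 base or more. Shares were compared over libraries by exact permutation of the difference in means, adjusted by Benjamini-Hochberg over 4 tests. The rule was tested on simulated peaks and returned the planted regions. Genes came from RefSeq tables of GRCm38.p6, with 21887 protein-coding positions. Starts were known for 17492 genes and none on chromosome 18, so nearest genes were taken by distance to the body and not, as planned, to the start, and shares near starts leave chromosome 18 out. All list genes had a position. Exons were not annotated.

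The members and gene lists were chosen with earlier results of these data known. Named genes are list genes with a member within 50 kb, the 10 members of highest lower fold, the 10 genes with most members nearest, the 10 members of highest fold over a start, and genes of other cells' lists with a member where 5 or fewer had one. Some genes named by this rule are not reported here. Alternatives were a −log10 q of at least 2, equal numbers of top peaks, cover of at least 50% of a region in place of 1 base, no input condition, excluding peaks widened by 500 bases, other distances, 1 kind of aligned file, a replicate block and each library left out. RNA-seq was not analysed here. Tags without molecular identifiers are not independent molecules, and the interval covers counting error only.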

Additional observations from a re-analysis of the deposited data

How the results depend on the processing

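A −log10 q of at least 2 kept the direction and the side of the threshold of all 7 results. With equal numbers of top peaks the count of liver-only regions was 2579, the share within 1 kb of a start 2.76% and the difference of P6 liver input from other inputs -0.535 points, which turned its sign while the exact permutation p was 0.467. The excluding peaks widened by 500 bases gave 1.57% near a start, and a distance of 5 kb gave 9.71%. With only the liver libraries' kind of aligned file, P6 liver exceeded kidney endothelium by 61.5 points, where 2 against 2 libraries cannot go below an exact p of 0.333. The same limit for inputs, added after seeing the data, gave 1.93 points. At E12 no kind of aligned file was held by both groups, so that setting gave no value.

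Leaving out each library in turn gave 5662 regions (without adult lung 2) to 10891 (without adult liver 1), 45.2 to 70.3 points for P6 liver against other endothelium, and 49.4 to 76.1 points against liver input. It gave -9.94 to 12.1 points for liver input against other inputs, -6.84 to 2.43 points for E12 trunk, 1.99 to 2.08% near starts and 40 to 43 list genes. For P6 liver against other endothelium the adjusted p exceeds 0.05 with any library of that comparison left out, and the unadjusted exact p does so without P6 liver 1 or 2 (0.0769). Deviations of same-numbered P6 libraries of liver and another organ correlated at -0.058 to 0.065 across members. With 2 liver replicates the deviations mirror each other, so these values are not all separate checks. They cannot show whether same-numbered libraries share an animal or a batch. With the replicate block P6 liver exceeded the others by 59.9 points (exact permutation p = 0.0278, the smallest the block allows, which exceeds 0.05 after adjustment over 4 tests) and E12 trunk differed by -1.87 points (exact permutation p = 0.833). The causes were not tested.

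Depth differed between libraries: the E12 heart library with 10.1 M tags held 12.9% of the members and the other E12 heart libraries 53.4 to 62.2%, while E12 trunk 2 with 43.6 M held 27.9% and trunk 3 with 23.9 M held 41.2%. Its part in calls of absence was not tested.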
